A study of Mus musculus with 22 samples.

Results

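The 36 genes described here encode peroxisome proliferator-activated receptors (PPARs), genes under their control, and the proteins with which enterocytes take up, burn and export dietary lipid. They were chosen by gene name for these roles, and all 36 were found once each among the 52636 genes of the table. The table holds RNA-seq of mouse duodenal organoids, cultures grown from intestinal crypts that form a closed epithelium of stem and differentiated cells, with and without cold atmospheric plasma (CAP), a helium jet that brings reactive oxygen and nitrogen species into the medium. Paired-end reads of 100 bases were obtained for 22 libraries.

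All organoids were wild type, from the duodenal epithelium of adult mice, and the labels give stem cells as their cell type. The study states that its adult mice were of the outbred CD1 strain. Each of 4 organoid lines came from 1 mouse. The labels put line 1 at passage 12, line 2 at passage 14, and lines 3 and 4 at passage 4. Every line gave 1 untreated library, for which the labels give no treatment, and helium flow alone is not analysed here. Lines 1, 2 and 4 gave 1 library each in 6 treated groups, so that each treated group has n = 3 and line 3 is found among the untreated libraries alone. Direct CAP hit the culture itself at day 1, with fresh medium after 30 min or 24 h. Whether the 30 min libraries were collected then or later is not clear from the sources used here. Indirect CAP means medium moved over from another treated culture, and plasma-activated medium (PAM) means medium treated with no organoids in it. Either medium began at day 1 or at day 2, and the study's account is an exposure of 24 h in all 4 of these groups. The study calls the plasma dose moderate and puts the analysis of organoids exposed for 24 h at day 3. The labels give 30 min for the groups from day 1 and 24 h for those from day 2. The line numbers are those used here and not the study's own. By passage, lines 1 and 2 match male mice in the study's list and the other lines female mice, though the passage of the latter differs between the study and the labels. Line, sex of the mouse and passage cannot be told apart.

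PPARs are nuclear receptors that bind fatty acids and, paired with retinoid X receptors, switch on genes of fatty acid burning and storage. In the duodenum, absorptive enterocytes take up fatty acids, monoglycerides and sterols, rebuild triglycerides in the endoplasmic reticulum and pack them with apolipoprotein B into chylomicrons. Part of the fatty acid is stored in lipid droplets or oxidized in mitochondria and peroxisomes, and PPARs control genes of all these steps.

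PPAR pairs bind a direct repeat of the core AGGTCA with a single base between the copies, so the promoters of the 36 genes were searched for it on both strands. RefSeq promoters on GRCm38.p6, which run from 250 bases before to 50 after a start site, were found for 29 of the 36 genes, in 33 windows. The exact repeat (AGGTCA, any base, AGGTCA) was in 0.04% of all 32851 promoters and in none of the 29 genes. A looser form, in which each copy may read NGGNCA, was in 0.798% of all promoters and in 2 of the 33 windows, those of 2 of the 29 genes, Fabp1 and Rxra. The single core AGGTCA, which can overlap either longer form, was in 16.3% of all promoters and in 11 of the 33 windows. These belong to 10 of the 29 genes, namely Acadm, Acadvl, Cd36, Cpt1a, Creb3l3, Fabp1, Npc1l1, Plin2, Pparg and Rxra. A match is a description of these letters and not a binding site. The stretches below are the last 100 bases before the start site on the + strand, with the motif for which each is shown in capitals, while further copies of the core stay in lower case. Fabp1 (chr6:71199779-71199878) and Rxra (chr2:27709192-27709291) are shown since they hold the looser repeat, at -67 to -55 on the minus strand (AGGCCATAGGTCA) and at -75 to -63 on the plus strand (TGGTCATAGGCCA), counted from the start site.
Fabp1: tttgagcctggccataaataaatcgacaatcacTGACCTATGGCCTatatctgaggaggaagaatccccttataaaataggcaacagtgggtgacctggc
Rxra: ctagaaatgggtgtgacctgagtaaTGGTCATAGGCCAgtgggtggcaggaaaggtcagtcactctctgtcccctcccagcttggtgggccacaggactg
Cpt1a (chr19:3323201-3323300) and Pparg, with start sites that follow chr6:115361044-115361143 and chr6:115362249-115362348, are shown since these genes held higher values in treated organoids. They hold the core alone, and in Cpt1a it is on the minus strand. Acadm holds the core too and held lower values in every treated library, and a link between core and level was not tested.
Cpt1a: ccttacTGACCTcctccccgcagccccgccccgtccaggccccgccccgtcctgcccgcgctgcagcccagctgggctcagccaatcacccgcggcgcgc
Pparg, first start site: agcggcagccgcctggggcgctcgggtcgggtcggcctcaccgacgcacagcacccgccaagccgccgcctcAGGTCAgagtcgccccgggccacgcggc
Pparg, second start site: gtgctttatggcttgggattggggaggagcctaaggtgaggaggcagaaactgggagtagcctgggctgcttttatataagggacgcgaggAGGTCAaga

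Values are read counts scaled to 20 M reads per library (M for mega) and not divided by gene length, so that a value of 10 is about 10 reads. They are listed in the order of lines 1, 2, 3 and 4 for untreated libraries and of lines 1, 2 and 4 for treated ones. Depth, estimated from the spacing of low values, was 19.4 to 28.7 M reads a library. Differences were tested on log2(value + 1) with limma's moderated test over all genes with values of 10 or above in 3 or more libraries of the comparison, and a gene passed when its adjusted p was under 0.01 and its log2 fold change was 1 or more in size. For single treated groups the p-values measure the spread between organoid lines. Where groups are pooled, libraries of 1 line enter as independent ones. Untreated lines 1 and 2 stood apart from their labels, since their deviations from the group mean across genes correlated at a median of 0.131 with their own line in the treated groups and 0.422 with the other of the pair, against 0.564 for pairs of treated libraries of 1 line. Both are untreated, so a comparison of groups holds the same libraries either way. Summed values of 8 enterocyte markers were 85652 to 96374 in untreated libraries, and those of 5 stem cell markers were 32557 to 38876. After PAM from day 2 the enterocyte sum was 141380 to 155311 and the stem cell sum 757 to 2747. The median log2 fold change of the 8 enterocyte markers was 0.11 there, and Alpi alone passed, as higher. The stem cell sum was 1306 to 2640 after PAM from day 1 and 2703 to 3953 after indirect CAP from day 2. The 8 enterocyte markers summed above the 5 stem cell markers in every library. These sums hold different numbers of genes and are not divided by gene length, so they do not give shares of cell types. Goblet cell markers summed to 72777 to 128934 in untreated libraries, to 57527 to 87471 after indirect CAP from day 2 and to 17348 to 45771 after PAM from day 2. Paneth cell markers summed to 21047 to 28206 in untreated libraries, to 3461 to 14536 after PAM from day 1, to 3660 to 15912 after PAM from day 2 and to 12706 to 21083 after indirect CAP from day 2. Fibroblast markers summed to 17 or less, endothelial markers to 28 or less and adipocyte markers to 22 or less in every library. Leukocyte markers summed to 94 to 227. In bulk RNA, fewer cells of a type and less RNA per cell cannot be told apart.

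In untreated organoids the levels of the 36 genes, per kilobase of exon, ran from the chylomicron apolipoproteins and cytosolic fatty acid binding proteins at the top to Pdk4 and Abca1 at the bottom. Apoa1, the main protein of high density lipoprotein, was at 11535 ± 1660.4 per kilobase (SD, n = 4), Fabp2, the intestinal fatty acid binding protein, at 10249 ± 1849, and Apoa4, an apolipoprotein made by enterocytes, at 9795 ± 1318. These 3 genes followed each other by less than their SDs. Fabp1, the liver-type fatty acid binding protein, came next at 5443 ± 2153, ahead of Acaa2 at 4394 ± 945, Mttp at 4314 ± 549 and Apob at 4083 ± 416, and these 4 did not differ beyond their spread. Among the receptors Rxra was at 569 ± 86.8, Ppara at 307 ± 128, Pparg at 264 ± 34.1 and Ppard at 152 ± 14.3. Ppara and Pparg did not differ beyond their spread, and Ppard lay below Pparg by more than both SDs. Angptl4 was at 41.7 ± 20.5, Abca1 at 1.69 ± 0.805 and Pdk4 at 1.57 ± 0.854, the last pair near the detection limit.

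**Figure D1:**
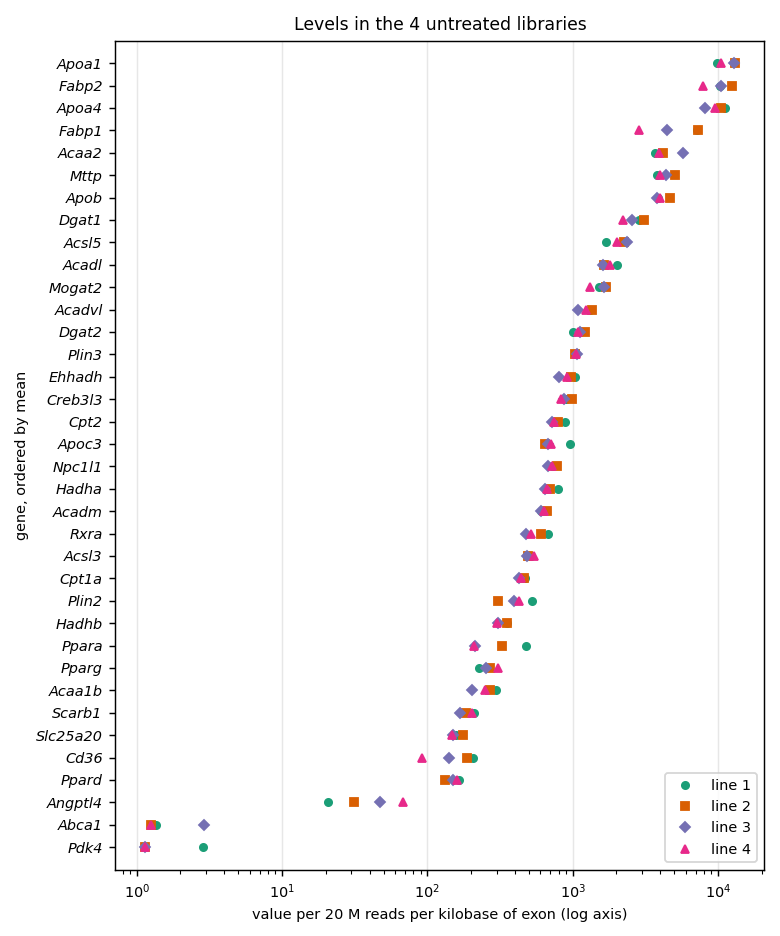
Levels of the 36 genes in the 4 untreated libraries, as scaled counts per kilobase of exon on a log axis, with 1 point per organoid line and genes ordered by their mean. Apoa1, Fabp2 and Apoa4 lead and Abca1 and Pdk4 close the order, and line 4 lies below the other lines for Fabp1 and Cd36.

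Against untreated organoids, at most 1 of the 36 genes passed the test after direct CAP or after indirect CAP from day 1, and 4 or 5 passed after PAM from day 1 and in both groups from day 2. None of 35 tested genes passed after direct CAP for 30 min, where limma called 0.00564% of all genes, and 10 had an unadjusted p under 0.05 (24.9% of all genes). After 24 h of direct CAP, 1 of 36 passed as higher, Pparg, against 2.17% of all genes (1.25% higher and 0.917% lower). After indirect CAP from day 1 none of 36 passed in limma, against 1.31% of all genes (0.831% higher and 0.477% lower), and 14 had an unadjusted p under 0.05 (38.6% of all genes). With these 2 groups and PAM from day 1 as one group of 9 libraries, 1 of 36 passed as higher, Pparg again, against 6.34% of all genes (4.27% higher and 2.07% lower). These 9 libraries come from 3 lines and entered as independent, so their p-values do not measure the spread between lines alone. After PAM from day 1, 4 of 36 passed, all higher and 1 of them, Pdk4, tested only because of its high values in the PAM libraries, against 10.2% of all genes (4.83% higher and 5.4% lower). After indirect CAP from day 2, 4 of 35 passed, 1 higher and 3 lower, against 11.9% of all genes (6.2% higher and 5.71% lower). After PAM from day 2, 5 of 35 passed, 4 higher and 1 lower, against 17.3% of all genes (6.82% higher and 10.5% lower). Counted either way, these shares of the 36 genes were near or below those of all genes. By direction, 11.1% of the members were called higher after PAM from day 1 and 11.4% after PAM from day 2, and 8.57% were called lower after indirect CAP from day 2, with the shares of all genes as above. At an adjusted p under 0.05 whatever the fold, 7 of 36 were higher and 2 lower over the 9 libraries (14.8% and 18.7% of all genes), 6 and 1 after direct CAP for 24 h (7.05% and 10.2%), 6 and 1 after indirect CAP from day 1 (10.2% and 10.4%), and 10 and 1 after PAM from day 1 (15.2% and 26.6%), with Pdk4 among the 10. From day 2 they were 8 and 8 of 35 after indirect CAP (20.3% and 23.5%) and 10 and 5 of 35 after PAM (18.5% and 29.1%).

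The medians stayed near 0. Over the 36 genes the median log2 fold change was 0.12 after direct CAP for 24 h, and 0.02 after indirect CAP and 0.07 after PAM from day 1. In the groups from day 2 it was taken over the 35 genes tested, without Pdk4. It was -0.09 there after indirect CAP and -0.06 after PAM. Over all genes tested the median was -0.08, 0.00, -0.13, -0.01 and -0.12 in that order. Quantile normalization moved the last of these to 0 and the median of the 35 genes beside it to 0.04. The counts of genes with every treated library above every untreated one were 7 of 35 after direct CAP for 30 min (12.4% of all genes), 8 of 36 after 24 h (11.6%), 9 of 36 after indirect CAP from day 1 (16.7%), 8 of 36 after PAM from day 1 (17.1%), 9 of 35 after indirect CAP from day 2 (22.7%) and 9 of 35 after PAM from day 2 (20.7%). Pdk4, which reached the filter only through its treated libraries, is in the counts for direct CAP for 24 h and for PAM from day 1. The counts with every treated library below were 1 (11.2% of all genes), 1 (19.1%), 2 (17.7%), 1 (29.7%), 7 (25.8%) and 8 (32.6%) in the same order. With the 9 libraries of the day 1 groups exposed for 24 h together, 6 of 36 lay above (7.16% of all genes) and 1 below (10.5%). Ppard, Cpt1a and Apob lay above every untreated library in all 6 groups and Acadm below every one, while Fabp2, Apoa1, Acaa2, Ehhadh and Cpt2 lay below in both groups from day 2. The share of all genes that did so in several groups at once was not counted. All groups are set against the same untreated libraries, so their counts are not independent, and these patterns are not shown to be particular to the named genes.

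**Figure D2:**
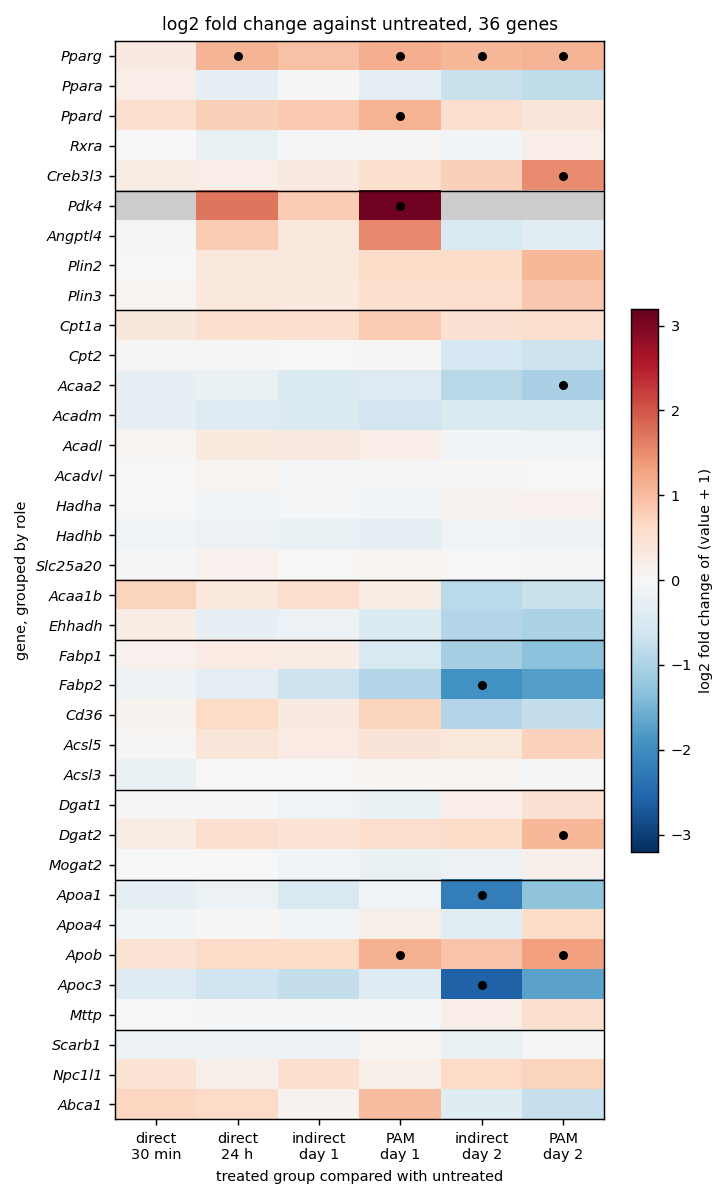
Log2 fold change of value + 1 against untreated organoids for the 36 genes (rows, grouped by role) in the 6 treated groups (columns, n = 3 each against 4), with dots where a gene passed limma's test at the threshold and grey where too few libraries reached the filter. Pparg is dotted in 4 columns and Apob in 2, and the strongest blue is Apoc3 and Apoa1 under indirect CAP from day 2.

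Pparg is the receptor known for adipocyte formation and is also made in gut epithelium (ENSMUSG00000000440, chr6:115360951-115490399, + strand). It was higher in every treated group other than direct CAP for 30 min. Pparg read 667, 792, 752 and 909 in the untreated libraries, 899, 704 and 1332 after direct CAP for 30 min and 1566, 1280 and 2267 after 24 h. Indirect CAP gave Pparg values of 1360, 1197 and 1981 from day 1 and 1463, 1253 and 2286 from day 2, and PAM gave 1906, 1385 and 2012 from day 1 and 1632, 1412 and 1917 from day 2. All 15 libraries of the 5 groups other than direct CAP for 30 min lay above the highest untreated library. The 30 min group overlapped the untreated one. The mean was 780 ± 101 (SD, n = 4) in untreated organoids, 1704 ± 508 (SD, n = 3) after direct CAP for 24 h and 1768 ± 336 (SD, n = 3) after PAM from day 1. Pparg rose by a log2 fold change of 1.09 ± 0.19 (SE) after direct CAP for 24 h (limma adjusted p = 0.00891), 1.17 ± 0.15 after PAM from day 1 (adjusted p = 0.000738), 1.06 ± 0.20 after indirect CAP from day 2 (adjusted p = 0.00347) and 1.08 ± 0.14 after PAM from day 2 (adjusted p = 0.00083). With indirect CAP from day 1 it was 0.93 ± 0.18 and short of both thresholds (limma adjusted p = 0.0126). Over the 9 libraries, which are 3 lines entered as independent libraries, Pparg rose by 1.06 ± 0.16 (limma adjusted p = 0.000546). These rises are close to the fold threshold. The call after direct CAP for 24 h was lost without any 1 of the 4 untreated libraries or without line 1 or 4 of its own group (limma adjusted p = 0.0127 to 0.0293). Without untreated line 1, the pooled value was 0.99 and the value for indirect CAP from day 2 was 0.98, and without line 4 of the group the value was 0.80 for indirect CAP and 0.97 for PAM from day 2, all under the fold threshold. Without untreated line 2, indirect CAP from day 2 gave 1.07 (limma adjusted p = 0.0109).

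Ppard, the PPAR found across the widest range of tissues (ENSMUSG00000002250, chr17:28232700-28301474, + strand), rose after PAM from day 1. Ppard read 1249, 1000, 1128 and 1195 in the untreated libraries, 1382, 1529 and 2153 after direct CAP for 30 min and 2000, 1986 and 1802 after 24 h. Indirect CAP gave Ppard values of 1866, 1824 and 2451 from day 1 and 1624, 1647 and 1669 from day 2, and PAM gave 2739, 2144 and 2506 from day 1 and 1523, 1250 and 1759 from day 2. Every treated library lay above every untreated one in all 6 groups, by a single unit in line 2 of PAM from day 2 (1250 against 1249). Ppard rose by 1.11 ± 0.11 (log2, SE) under PAM from day 1 (limma adjusted p = 0.000283), while the difference was 0.76 ± 0.10 with direct CAP for 24 h (adjusted p = 0.00411), 0.83 ± 0.12 with indirect CAP from day 1 (adjusted p = 0.00687) and 0.53 ± 0.09 with indirect CAP from day 2 (adjusted p = 0.0019), all under the fold threshold.

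Ppara, the receptor that drives fatty acid oxidation during fasting, gave no call, and the lines differed widely in it. Ppara read 1842, 1245, 814 and 802 in the untreated libraries, 1383, 1759 and 871 after direct CAP for 30 min and 875, 1526 and 517 after 24 h. Indirect CAP gave Ppara values of 995, 1495 and 829 from day 1 and 636, 1146 and 423 from day 2, and PAM gave 687, 1399 and 778 from day 1 and 697, 1054 and 340 from day 2. The groups overlapped the untreated range everywhere, and its log2 fold change was -0.71 ± 0.38 (SE) with indirect CAP and -0.81 ± 0.42 under PAM from day 2 (limma adjusted p = 0.162 and 0.14). Rxra, the partner receptor, was between 2624 and 3673 in untreated and 1981 and 4233 in treated libraries. Its log2 fold changes ran from -0.24 to 0.22, and it gave no call. Creb3l3, a membrane-bound transcription factor of liver and gut that acts on apolipoprotein and lipid oxidation genes (ENSMUSG00000035041, chr10:81084324-81098874, - strand), rose after PAM from day 2. Creb3l3 read 2692, 2977, 2619 and 2497 in the untreated libraries, 2983, 3205 and 3400 after direct CAP for 30 min and 2550, 4258 and 2818 after 24 h. Indirect CAP gave Creb3l3 values of 2735, 4178 and 3060 from day 1 and 3260, 6456 and 4562 from day 2, and PAM gave 2589, 5225 and 4104 from day 1 and 5243, 10800 and 8074 from day 2. All 3 libraries of PAM from day 2 and of indirect CAP from day 2 lay above the untreated range, and line 2 was the highest of both. Those after direct CAP for 30 min lay above it too, the lowest by little (2983 against 2977). Creb3l3 averaged 2696 ± 204 (SD, n = 4) in untreated organoids and 8039 ± 2779 (SD, n = 3) after PAM from day 2, a rise of 1.52 ± 0.22 (log2, SE, limma adjusted p = 0.00114). With indirect CAP from day 2 the value was 0.77 ± 0.20 (adjusted p = 0.0146).

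**Figure D3:**
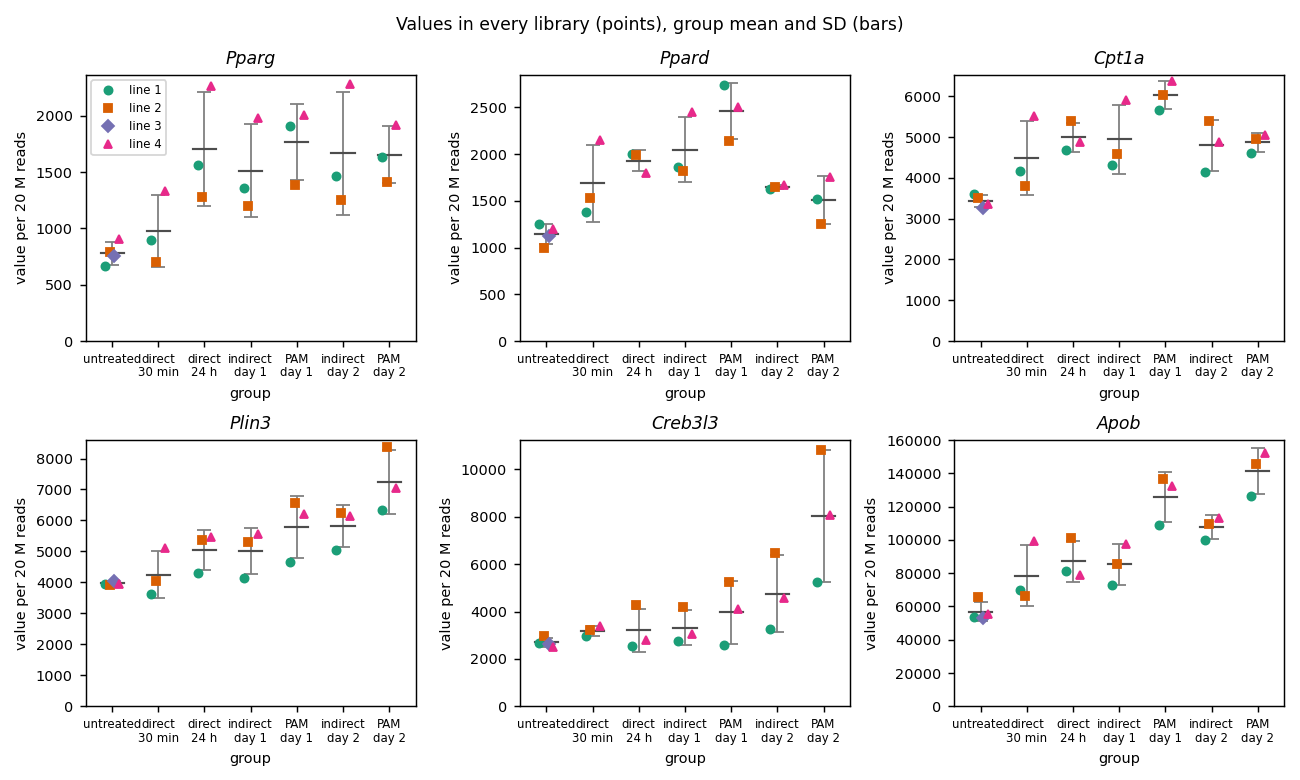
Scaled counts of Pparg, Ppard, Cpt1a, Plin3, Creb3l3 and Apob in all 22 libraries, with 1 marker per organoid line, the mean as a line and the SD as a bar for each group. Every treated library lies above every untreated one for Ppard, Cpt1a and Apob, and Creb3l3 reaches 5243 to 10800 after PAM from day 2.

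Among 4 targets of PPARs outside oxidation, 3 gave no call, and Pdk4 was called after PAM from day 1, where it reached the filter only through the PAM libraries. Pdk4 encodes a kinase that blocks the entry of pyruvate into the citric acid cycle (ENSMUSG00000019577, chr6:5483351-5496309, - strand) and was near the detection limit. Pdk4 read 10, 4, 4 and 4 in the untreated libraries, 2, 12 and 5 after direct CAP for 30 min and 11, 51 and 12 after 24 h. Indirect CAP gave Pdk4 values of 2, 37 and 10 from day 1 and 2, 47 and 6 from day 2, and PAM gave 38, 141 and 26 from day 1 and 1, 50 and 5 from day 2. Line 2 was the highest of the 3 lines in each treated group, and all libraries of PAM from day 1 and of direct CAP for 24 h lay above the untreated range. The difference was 3.12 ± 0.59 (log2, SE) under PAM from day 1 (limma adjusted p = 0.00368). In the untreated group 1 of 4 libraries held 10 or above, so the gene was tested because it was high in treated libraries, and this call lends no support to a rise. It was too low to be tested after 30 min or from day 2. This call was lost with the organoid line as a block (log2 fold change 3.03, limma adjusted p = 0.0188) and without untreated line 2, 3 or 4 (3.03, adjusted p = 0.0107 to 0.0124). The fold of a gene at values of 4 to 10 depends on the pseudocount of 1.

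Angptl4, a secreted inhibitor of lipoprotein lipase, varied by line in the untreated libraries as well. Angptl4 read 73, 111, 167 and 240 in the untreated libraries, 113, 75 and 265 after direct CAP for 30 min and 238, 133 and 411 after 24 h. Indirect CAP gave Angptl4 values of 154, 109 and 285 from day 1 and 65, 73 and 187 from day 2, and PAM gave 446, 269 and 503 from day 1 and 131, 70 and 129 from day 2. PAM from day 1 was the group whose 3 libraries all lay above the untreated ones, at 1.54 ± 0.39 (log2, SE, limma adjusted p = 0.0144), which missed the threshold. From day 2 its values lay within or below the untreated range. Plin2, the lipid droplet coat protein perilipin 2, read 1829, 1069, 1375 and 1503 in untreated libraries and 1649, 4569 and 3421 after PAM from day 2 (1.06 ± 0.33, limma adjusted p = 0.0298), where line 1 overlapped the untreated range. Plin3, a droplet coat protein that moves from the cytosol, varied little among untreated libraries. Plin3 read 3958, 3932, 4054 and 3959 in the untreated libraries, 3629, 4031 and 5096 after direct CAP for 30 min and 4317, 5361 and 5477 after 24 h. Indirect CAP gave Plin3 values of 4156, 5314 and 5560 from day 1 and 5054, 6252 and 6151 from day 2, and PAM gave 4665, 6549 and 6198 from day 1 and 6327, 8360 and 7062 from day 2. All libraries of the treated groups other than direct CAP for 30 min lay above the untreated range, which spanned 3932 to 4054. The log2 fold change of Plin3 was 0.53 ± 0.12 (SE) under PAM from day 1 (limma adjusted p = 0.00741), 0.54 ± 0.09 with indirect CAP from day 2 (adjusted p = 0.00159) and 0.86 ± 0.11 under PAM from day 2 (adjusted p = 0.000643), under the fold threshold in each.

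Of 9 genes of mitochondrial fatty acid entry and oxidation, Acaa2 fell after PAM from day 2 and no other passed in any comparison with untreated organoids. Cpt1a, which makes the acylcarnitine that enters mitochondria and is the rate-setting step of entry, lay higher in all 18 treated libraries. Cpt1a read 3603, 3512, 3259 and 3368 in the untreated libraries, 4164, 3798 and 5506 after direct CAP for 30 min and 4696, 5396 and 4887 after 24 h. Indirect CAP gave Cpt1a values of 4323, 4594 and 5910 from day 1 and 4135, 5385 and 4885 from day 2, and PAM gave 5674, 6043 and 6372 from day 1 and 4599, 4947 and 5060 from day 2. No treated library overlapped the untreated range, which ended at 3603. The difference was 0.54 ± 0.08 (log2, SE) with direct CAP for 24 h (limma adjusted p = 0.00622), 0.81 ± 0.08 under PAM from day 1 (adjusted p = 0.000209), 0.48 ± 0.10 with indirect CAP from day 2 (adjusted p = 0.00493) and 0.50 ± 0.08 under PAM from day 2 (adjusted p = 0.00194), below the fold threshold each time. Cpt2, which turns acylcarnitine back into acyl-CoA inside the organelle, lay lower from day 2. Cpt2 read 2124, 1885, 1710 and 1766 in the untreated libraries, 1883, 2153 and 1768 after direct CAP for 30 min and 1672, 2161 and 1615 after 24 h. Indirect CAP gave Cpt2 values of 1769, 2030 and 1891 from day 1 and 1229, 1487 and 1094 from day 2, and PAM gave 1750, 2173 and 1809 from day 1 and 1303, 1320 and 956 from day 2. All 6 libraries from day 2 lay below the untreated range, at -0.57 ± 0.12 with indirect CAP (limma adjusted p = 0.00604) and -0.66 ± 0.14 with PAM (adjusted p = 0.00605), again under the fold threshold.

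Acaa2, the thiolase of the last step of the cycle (ENSMUSG00000036880), was lower from day 2. Acaa2 read 5610, 6337, 8764 and 5934 in the untreated libraries, 5659, 5286 and 5424 after direct CAP for 30 min and 5177, 5890 and 5810 after 24 h. Indirect CAP gave Acaa2 values of 4548, 5130 and 4642 from day 1 and 3479, 3898 and 3229 from day 2, and PAM gave 4278, 5621 and 4896 from day 1 and 3559, 3837 and 2404 from day 2. The libraries of both day 2 groups and of indirect CAP from day 1 lay below the untreated range, in which line 3 was the highest. Acaa2 averaged 6661 ± 1433 (SD, n = 4) in untreated organoids and 3267 ± 759.9 (SD, n = 3) after PAM from day 2, a log2 fold change of -1.03 ± 0.20 (SE, limma adjusted p = 0.00446). With indirect CAP from day 2 the value was -0.90 ± 0.15 (adjusted p = 0.00222), under the fold threshold. The call was lost with the line as a block (-0.89, limma adjusted p = 0.00967), without untreated line 2 (-1.05, adjusted p = 0.0133), line 3 (-0.89, 0.00889) or line 4 (-1.08, 0.0107), and without line 4 of the PAM group (-0.83, 0.00706).

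Acadm, the dehydrogenase for fatty acids of medium chain length, lay lower in all 18 treated libraries. Acadm read 2369, 2613, 2366 and 2486 in the untreated libraries, 2149, 2085 and 1910 after direct CAP for 30 min and 1772, 1937 and 1835 after 24 h. Indirect CAP gave Acadm values of 1751, 1988 and 1670 from day 1 and 1747, 1924 and 1685 from day 2, and PAM gave 1339, 1885 and 1610 from day 1 and 1768, 2141 and 1458 from day 2. Each treated library was below the lowest untreated one, 2366, and the log2 fold change was -0.62 ± 0.12 (SE) under PAM from day 1 (limma adjusted p = 0.00352) and -0.46 ± 0.08 with indirect CAP from day 2 (adjusted p = 0.00175), under the fold threshold. Acadl, for long chains, ran from 3234 to 4021 in untreated and 2533 to 5603 in treated libraries. Acadvl, for very long chains, stayed at 2945 to 3708 in treated libraries. Of its exon bases, 42.9% overlap Dvl2 on the opposite strand, so that reads from these bases may be lost or misassigned. The subunits of the trifunctional protein were at 5181 to 7441 (Hadha) and 1572 to 2153 (Hadhb) in treated libraries, and the carnitine carrier Slc25a20 at 561 to 997. Hadhb lay below every untreated library under PAM from day 2, at -0.19 ± 0.09 (log2, SE, limma adjusted p = 0.125), and the log2 fold changes of these 5 genes stayed between -0.30 and 0.30 in the 7 comparisons with untreated organoids. The untreated values of Hadhb were 2317, 2311, 2019 and 1999 and those under PAM from day 2 1938, 1914 and 1828.

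The peroxisomal pair gave no call. Ehhadh, a peroxisomal bifunctional enzyme, is a classical PPAR-alpha target. Ehhadh read 3067, 2881, 2414 and 2728 in the untreated libraries, 3214, 3187 and 3336 after direct CAP for 30 min and 1876, 3193 and 2033 after 24 h. Indirect CAP gave Ehhadh values of 2241, 2878 and 2194 from day 1 and 1149, 2120 and 1219 from day 2, and PAM gave 1341, 2840 and 2242 from day 1 and 1683, 2353 and 661 from day 2. It lay above every untreated library after direct CAP for 30 min and below every one with both treatments from day 2. The log2 fold change was 0.23 ± 0.09 (SE) at 30 min (limma adjusted p = 0.165), -0.94 ± 0.20 with indirect CAP from day 2 (adjusted p = 0.00635, under the fold threshold) and -1.0 ± 0.37 under PAM from day 2 (adjusted p = 0.055). Acaa1b, a peroxisomal thiolase, also lay higher at 30 min. It has a near-identical paralog, Acaa1a, and reads that match both may be lost or misassigned. Acaa1b read 583, 533, 401 and 489 in the untreated libraries, 719, 908 and 819 after direct CAP for 30 min and 562, 801 and 561 after 24 h. Indirect CAP gave Acaa1b values of 616, 1024 and 628 from day 1 and 237, 412 and 205 from day 2, and PAM gave 363, 793 and 683 from day 1 and 329, 461 and 182 from day 2. Each of the 3 libraries after 30 min lay above the untreated ones, at 0.71 ± 0.14 (limma adjusted p = 0.1). Those of indirect CAP from day 1 also lay above the untreated ones. From day 2 at most 1 library per group reached the lowest untreated value. In Acaa1b 11.4% of exon bases overlap Dlec1 on the opposite strand.

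Of 5 genes of fatty acid uptake, binding and activation, Fabp2 fell after indirect CAP from day 2 (ENSMUSG00000023057, chr3:122895072-122899506, + strand) and the other 4 gave no call. Fabp2 read 9940, 11955, 10066 and 7599 in the untreated libraries, 8899, 10968 and 6959 after direct CAP for 30 min and 7345, 9001 and 7643 after 24 h. Indirect CAP gave Fabp2 values of 5369, 8704 and 4897 from day 1 and 1823, 4947 and 1826 from day 2, and PAM gave 2924, 8854 and 5173 from day 1 and 3030, 7255 and 1064 from day 2. All libraries from day 2 lay below the lowest untreated one, 7599, and line 2 was the highest of the 3 lines in each treated group. The mean went from 9890 ± 1784 (SD, n = 4) in untreated organoids to 2865 ± 1803 (SD, n = 3) after indirect CAP from day 2, a log2 fold change of -1.94 ± 0.34 (SE, limma adjusted p = 0.00249). PAM from day 2 gave -1.77 ± 0.54 (adjusted p = 0.0278), and PAM from day 1 -0.93 ± 0.33 (adjusted p = 0.0505). Without line 1 of the indirect CAP group the call was lost (-1.70, limma adjusted p = 0.0106).

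Fabp1 differed widely between lines. Fabp1 read 3971, 4010, 2478 and 1580 in the untreated libraries, 3518, 4896 and 1683 after direct CAP for 30 min and 3416, 5536 and 2043 after 24 h. Indirect CAP gave Fabp1 values of 3881, 5762 and 1586 from day 1 and 1562, 4708 and 323 from day 2, and PAM gave 1055, 4684 and 1630 from day 1 and 2461, 4991 and 114 from day 2. Line 4 was low already when untreated and was lowest at day 2, whereas line 2 stayed above every untreated library in each treated group, so that the groups overlapped (log2 fold change -1.07 ± 0.78 with indirect CAP, -1.33 ± 1.14 under PAM from day 2, limma adjusted p = 0.296 and 0.363). Cd36, a fatty acid receptor of the brush border, read 742, 668, 502 and 328 in untreated libraries, 482, 2040 and 683 under PAM from day 1, and 261, 500 and 162 after indirect CAP from day 2. These overlapped, and no comparison with untreated organoids gave a call. Acsl5, an acyl-CoA synthetase of enterocytes, lay higher in all treated groups other than direct CAP for 30 min. Acsl5 read 8266, 10991, 11414 and 9883 in the untreated libraries, 10706, 9555 and 10718 after direct CAP for 30 min and 12418, 12146 and 15156 after 24 h. Indirect CAP gave Acsl5 values of 11939, 11665 and 12790 from day 1 and 11431, 11553 and 15604 from day 2, and PAM gave 12933, 12917 and 14077 from day 1 and 15978, 17409 and 17235 from day 2. Its lowest library in the groups other than direct CAP for 30 min, 11431, exceeded the highest untreated one, 11414. PAM from day 2 gave 0.75 ± 0.13 (limma adjusted p = 0.00231), under the fold threshold. Acsl3, a synthetase found on lipid droplets, ran from 1712 to 2924 in treated libraries with log2 fold changes between -0.22 and 0.08.

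Of the 3 enzymes that rebuild triglyceride, Dgat2 rose after PAM from day 2 (ENSMUSG00000030747, chr7:99153658-99182719, - strand), and Dgat1 and Mogat2 gave no call. Dgat2 and Dgat1 both add the last acyl chain, and Mogat2 acylates absorbed monoglyceride. Dgat2 read 3106, 3769, 3459 and 3339 in the untreated libraries, 3663, 3921 and 4481 after direct CAP for 30 min and 4233, 5792 and 4619 after 24 h. Indirect CAP gave Dgat2 values of 3992, 5159 and 4733 from day 1 and 4351, 5871 and 5221 from day 2, and PAM gave 3613, 6287 and 5563 from day 1 and 6163, 8913 and 6433 from day 2. All 6 libraries from day 2 lay above the highest untreated one, 3769. The same held for direct CAP for 24 h and for indirect CAP from day 1. Line 2 was the highest in every treated group other than direct CAP for 30 min. Dgat2 averaged 3418 ± 276 (SD, n = 4) in untreated organoids and 7169.7 ± 1516 (SD, n = 3) after PAM from day 2, a rise of 1.05 ± 0.14 (log2, SE, limma adjusted p = 0.000919). Indirect CAP from day 2 gave 0.58 ± 0.11 (adjusted p = 0.00395), under the fold threshold. The call was lost with quantile normalization (0.996) and without line 2 of the PAM group (0.885). Dgat1, the most abundant of the 3 per kilobase, read 8707, 9386, 7755 and 6765 in untreated libraries, 4970, 10357 and 6552 under PAM from day 1 and 10507, 15887 and 8588 from day 2. Both groups overlapped the untreated range, with line 2 the highest, at 0.48 ± 0.21 under PAM from day 2 (limma adjusted p = 0.0922). Mogat2 was at 2405 to 3111 in untreated and 1534 to 4900 in treated libraries.

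The chylomicron genes gave calls in both directions, in different groups. Apob was called higher after PAM from either day, and Apoa1 and Apoc3 were called lower after indirect CAP from day 2. Apoa4 and Mttp gave no call. Apob, the backbone protein of chylomicrons (ENSMUSG00000020609, chr12:7977648-8016835, + strand), lay above every untreated library in all 6 groups. Apob read 53398, 65472, 53303 and 55396 in the untreated libraries, 70041, 66038 and 99431 after direct CAP for 30 min and 81167, 101121 and 78899 after 24 h. Indirect CAP gave Apob values of 73093, 85569 and 97492 from day 1 and 99763, 109825 and 113350 from day 2, and PAM gave 108873, 136845 and 132303 from day 1 and 126092, 145591 and 152259 from day 2. The highest untreated library, 65472, was below the lowest treated one, 66038. The mean was 56892 ± 5801 (SD, n = 4) in untreated organoids, 126007 ± 15011 (SD, n = 3) after PAM from day 1 and 141314 ± 13598 (SD, n = 3) after PAM from day 2. Apob rose by 1.15 ± 0.14 (log2, SE) after PAM from day 1 (limma adjusted p = 0.000639) and 1.31 ± 0.14 after PAM from day 2 (adjusted p = 0.000419). Indirect CAP from day 2 gave 0.92 ± 0.12 (adjusted p = 0.000676), under the fold threshold. With quantile normalization both rises came to less than 1, at 0.89 and 0.90.

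Apoa1 (ENSMUSG00000032083, chr9:46228580-46230466, + strand) and Apoc3, an inhibitor of lipoprotein lipase (ENSMUSG00000032081, chr9:46232933-46235636, - strand), are neighbours on chromosome 9 with Apoa4 (chr9:46240696-46243459, + strand). Apoa1 read 12080, 16137, 15876 and 12938 in the untreated libraries, 10911, 13493 and 10669 after direct CAP for 30 min and 10721, 15240 and 11940 after 24 h. Indirect CAP gave Apoa1 values of 8654, 12697 and 9109 from day 1 and 2732, 4640 and 2203 from day 2, and PAM gave 7458, 21323 and 14024 from day 1 and 6854, 11796 and 2379 from day 2. Every library of both day 2 groups lay below the lowest untreated value, 12080. The mean of Apoa1 was 14258 ± 2052 (SD, n = 4) in untreated organoids and 3192 ± 1282 (SD, n = 3) after indirect CAP from day 2, a log2 fold change of -2.22 ± 0.24 (SE, limma adjusted p = 0.000237). With PAM from day 2 the value was -1.29 ± 0.46 (adjusted p = 0.048), where line 2 stayed near the untreated range. Apoc3 read 971, 652, 685 and 716 in the untreated libraries, 539, 796 and 408 after direct CAP for 30 min and 339, 799 and 405 after 24 h. Indirect CAP gave Apoc3 values of 383, 778 and 284 from day 1 and 112, 253 and 66 from day 2, and PAM gave 280, 1255 and 501 from day 1 and 286, 676 and 59 from day 2. All 3 libraries of indirect CAP from day 2 lay below the untreated ones, and with PAM line 2 overlapped them. Apoc3 averaged 756 ± 146 (SD, n = 4) in untreated organoids and 144 ± 97.4 (SD, n = 3) after indirect CAP from day 2, at -2.59 ± 0.39 (log2, SE, limma adjusted p = 0.00125), while PAM from day 2 gave -1.72 ± 0.69 (adjusted p = 0.0697).

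Apoa4, from the same cluster, passed in no comparison. Apoa4 read 20244, 18929, 14698 and 17244 in the untreated libraries, 13506, 17767 and 18665 after direct CAP for 30 min and 12708, 23077 and 20027 after 24 h. Indirect CAP gave Apoa4 values of 12014, 23178 and 16806 from day 1 and 8433, 23114 and 14111 from day 2, and PAM gave 8550, 35085 and 27251 from day 1 and 19587, 45790 and 21109 from day 2. The treated groups overlapped the untreated one each time, with line 1 the lowest of the 3 lines in all 6 groups, and the log2 fold change was -0.33 ± 0.29 (SE) with indirect CAP and 0.59 ± 0.29 under PAM from day 2 (limma adjusted p = 0.386 and 0.118). Of its exon bases, 34.9% and 34.8% overlap 2 genes on the opposite strand, Gm47528 and Gm10680, and whether the counting used strand is not given in the sources used here. Mttp, which loads lipid onto apolipoprotein B, was at 23601 to 31326 in untreated and 16620 to 50080 in treated libraries, with 0.51 ± 0.20 after PAM from day 2 (limma adjusted p = 0.0677). Beside these values, the summed enterocyte markers were 109385 to 112786 with indirect CAP from day 2, above every untreated library, while the median log2 fold change over the 8 markers was -0.49. Of the 8 enterocyte markers in that comparison, Alpi rose (log2 fold change 1.07, limma adjusted p = 0.00829), Anpep fell (-2.29, 0.00953) and the other 6 did not pass. With the line as a block, neither Alpi nor Anpep passed (limma adjusted p = 0.0277 and 0.033). The part of cell composition in these results was not tested. Smaller shares of exon bases overlap other genes in Acsl5 (8.31%), Mttp (7.36%) and Acsl3 (5.6%).

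**Figure D4:**
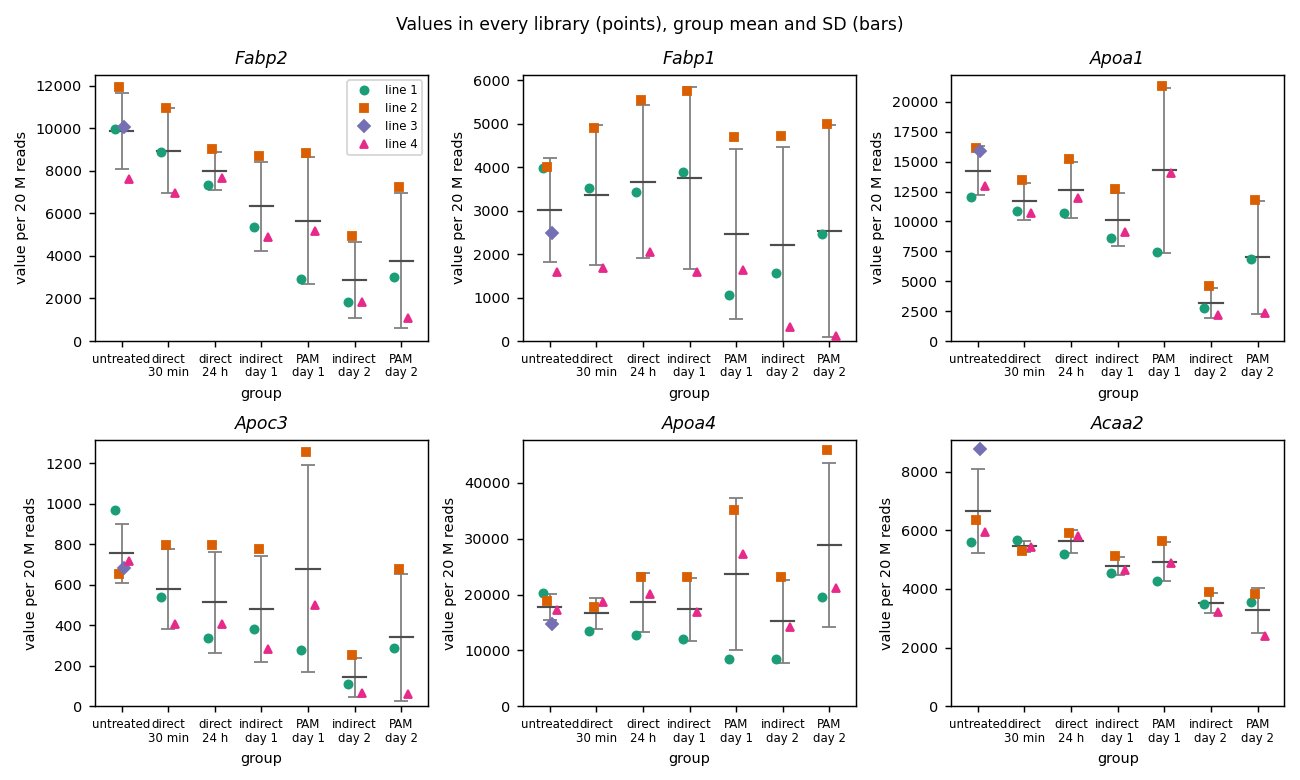
Scaled counts of Fabp2, Fabp1, Apoa1, Apoc3, Apoa4 and Acaa2 in all 22 libraries, with 1 marker per organoid line, the mean as a line and the SD as a bar (bars end at 0). Fabp2 and Apoa1 lie below all untreated libraries in both day 2 groups, and line 2 (squares) is the highest of the 3 lines in each treated group for Fabp2, Fabp1, Apoa1 and Apoc3.

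Of 3 sterol transport genes none passed. Npc1l1, the brush border cholesterol importer, lay higher in 4 groups. Npc1l1 read 3207, 3488, 3013 and 3239 in the untreated libraries, 4351, 4106 and 4771 after direct CAP for 30 min and 3235, 5531 and 2706 after 24 h. Indirect CAP gave Npc1l1 values of 4000, 5403 and 4492 from day 1 and 4695, 5796 and 4790 from day 2, and PAM gave 1996, 5078 and 5013 from day 1 and 5726, 6624 and 3915 from day 2. All libraries after 30 min, after indirect CAP from either day and after PAM from day 2 were above the highest untreated one, 3488. The difference was 0.65 ± 0.09 (log2, SE) with indirect CAP from day 2 (limma adjusted p = 0.001) and 0.71 ± 0.17 under PAM from day 2 (adjusted p = 0.00984), under the fold threshold. Scarb1, a receptor for high density lipoprotein, was at 1420 to 1789 in untreated and 1226 to 1863 in treated libraries. Abca1, the cholesterol exporter, was at 13 to 30 in untreated and 6 to 43 in treated libraries, near the detection limit, and lay below all untreated libraries under PAM from day 2, at 10, 7 and 12 against 14, 13, 30 and 13 (-0.73 ± 0.38, limma adjusted p = 0.143).

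The treated groups were also compared with each other, where the same 3 lines are on both sides. Without the line in the fit, none of the 36 genes passed in limma in any of 5 such comparisons. At an unadjusted p under 0.05, there were 3 of 36 for direct CAP at 24 h against 30 min (21.4% of all genes), 3 of 36 for PAM from day 1 set against 24 h of direct CAP (10.4%), 9 of 36 for indirect CAP from day 2 against day 1 (21.7%), 9 of 36 for PAM from day 2 against day 1 (26.8%) and 3 of 35 for PAM against indirect CAP from day 2 (9.48%). With the line as a block, 6 of 36 passed as lower with indirect CAP from day 2 than from day 1 (2.31% of all genes were lower and 1.15% higher), and the other 4 comparisons again gave none.

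The 6 genes were of lipid binding, export and peroxisomal oxidation. The log2 fold changes between the day 2 and day 1 groups with the line as a block were -1.72 ± 0.11 (SE) for Apoa1, -1.82 ± 0.13 for Apoc3, -1.43 ± 0.10 for Acaa1b, -1.30 ± 0.27 for Fabp1, -1.27 ± 0.12 for Fabp2 and -1.23 ± 0.10 for Cd36. The limma adjusted p was 2.16e-05, 2.67e-05, 2.67e-05, 0.00728, 0.000125 and 5.57e-05 in the same order. Cd36, for example, went from 552, 1165 and 425 to 261, 500 and 162 in lines 1, 2 and 4. Each of the 6 genes was lower from day 2 in 3 of 3 lines. They were picked by passing a test on these same lines, so this lends no further support. The day 1 groups and the day 2 groups differ in the start of the treatment and, by the labels, in the exposure time. By the study's account, they also differ in the time spent in fresh medium before collection and in the age of the medium when given. These cannot be told apart.

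Line 2 stood above the other lines for many of these genes. Within the 6 treated groups it was the highest of the 3 lines each time for 13 of 36 genes (4.82% of 19206 genes over all), namely Ppara, Cpt2, Pdk4, Acaa1b, Fabp1, Fabp2, Apoa1, Apoc3, Dgat1, Mogat2, Cd36, Acadl and Hadha. Line 1 was the lowest each time for 5 of 36 genes (1.71% of all genes), namely Plin2, Plin3, Creb3l3, Apoa4 and Dgat2. Pparg went the other way, with line 4 the highest and line 2 the lowest in all 6 groups. Relative to the mean of the 3 lines in the same group, Fabp1 was at 1.23 ± 0.63 (log2, SD over 6 groups) in line 2 and -1.38 ± 1.10 in line 4, and Apoc3 at 0.97 ± 0.37 and -0.72 ± 0.65. Cd36 was at 0.83 ± 0.23 in line 2 and -0.60 ± 0.25 in line 4, while Angptl4 was at -0.63 ± 0.16 and 0.69 ± 0.30. Among the untreated libraries the highest value of the 13 genes was in line 1 for 8 and in line 2 for 5, and it was never in line 3 or 4. The share of all genes for this was not counted. The 13 genes were picked for line 2 being highest when treated, and untreated lines 1 and 2 correlated more with each other's line. The count is thus no separate support. The groups of 1 line share a mouse, and the 13 genes are not independent of each other.

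**Figure D5:**
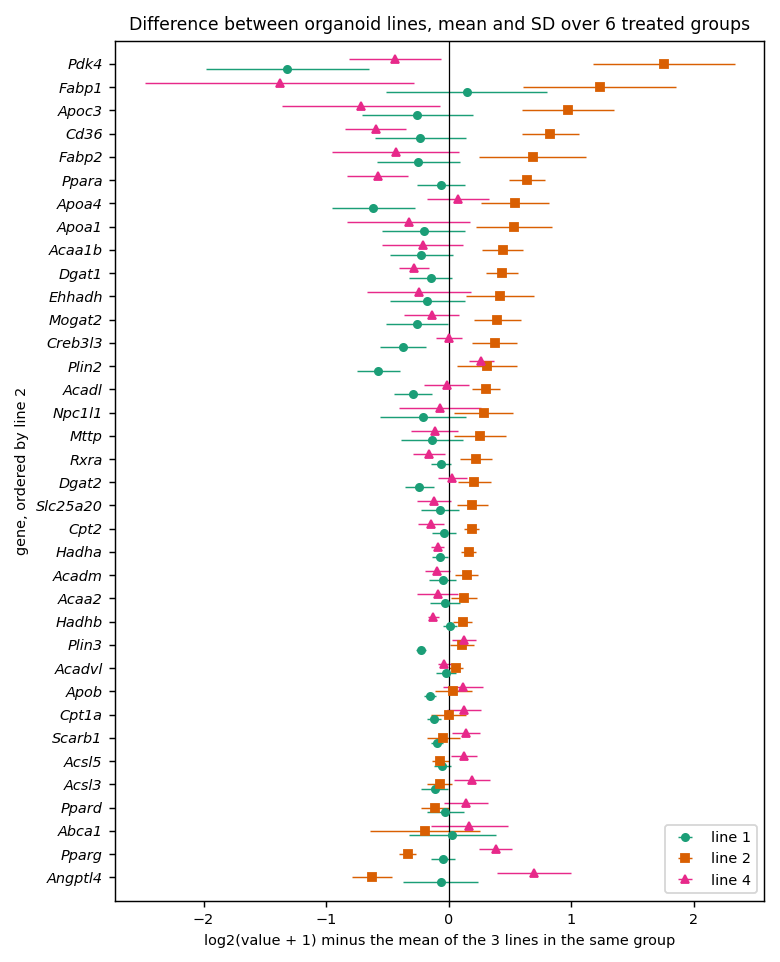
Difference of each organoid line from the mean of the 3 lines in the same treated group, on the log2(value + 1) scale, as mean and SD over the 6 treated groups for the 36 genes, ordered by line 2. Line 2 lies to the right for Pdk4, Fabp1, Apoc3, Cd36 and Ppara, and to the left for Angptl4 and Pparg.

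A list of 90 further genes of these pathways was read for comparison. Of those tested, 2 were lower and 6 higher of 81 over the 9 libraries together (6.34% of all genes were called either way), 1 lower and 4 higher of 78 after direct CAP for 24 h (2.17%), none lower and 2 higher of 79 after indirect CAP from day 1 (1.31%), and 5 lower and 7 higher of 79 after PAM from day 1 (10.2%). From day 2 they were 4 lower and 7 higher of 80 with indirect CAP (11.9%) and 6 lower and 11 higher of 80 with PAM (17.3%). After direct CAP for 30 min none of 79 passed in limma. Cidec, a lipid droplet fusion protein, rose in each of the 5 groups other than direct CAP for 30 min. It went from 92 to 136 in untreated libraries to 692, 1595 and 1715 under PAM from day 2. Its log2 fold change was 1.80 ± 0.25 (SE) with direct CAP for 24 h (limma adjusted p = 0.00445), 2.34 ± 0.21 under PAM from day 1 (0.000183), 2.58 ± 0.26 with indirect CAP from day 2 (0.000197) and 3.49 ± 0.31 under PAM from day 2 (0.000338).

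Fads2, a fatty acid desaturase and PPAR target, fell in 4 groups, from 3608 to 4307 in untreated libraries to 1056 to 1354 with indirect CAP from day 2, by a log2 fold change of -1.77 ± 0.10 (SE, limma adjusted p = 3.7e-05). Acat1, a mitochondrial thiolase, was at 1403 to 1666 in untreated libraries and 133 to 428 under PAM from day 2 (-2.63 ± 0.33, adjusted p = 0.000721). Me1, the malic enzyme that supplies NADPH for lipid synthesis, was at 1948 to 2221 when untreated and 5241 to 14054 under PAM from day 2 (1.96 ± 0.29, limma adjusted p = 0.00128). Slc27a2, a fatty acid transporter with acyl-CoA synthetase activity, was at 1488 to 2687 when untreated and 413 to 645 with indirect CAP from day 2 (-1.97 ± 0.22, limma adjusted p = 0.00029). Ppargc1a, the coactivator PGC-1alpha, was at 110 to 185 when untreated and 441 to 493 with indirect CAP from day 2 (1.79 ± 0.19, limma adjusted p = 0.000231). In each of these 5 the treated libraries lay outside the untreated range. None of 10 further peroxisomal oxidation genes passed in any of the 7 comparisons with untreated organoids.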

How the data were processed

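RNA-seq libraries were trimmed by the authors with Trimmomatic 0.36, aligned to GRCm38 with STAR 2.5.3a and counted with HTSeq 0.9.1 on Ensembl genes. The authors deposited 1 value per gene and library, a score: read counts brought to 20 M per library and rounded up, so edgeR, which the authors used on counts, was not run. Genes were matched to GENCODE vM21 (52403 of 52636, 99.6%). Depth was 19.4 to 28.7 M reads a library, by the spacing of low values. log2(value + 1) was tested with limma 3.58.1 (trended, R 4.3.3), over genes at 10 or more in at least 3 libraries fitted, with Benjamini-Hochberg adjustment over all of them and the study's threshold. Each treated group was compared with untreated, and 5 pairs of treated groups were compared. Libraries of 1 line share a mouse, and their deviations correlated (lowest 0.219, 45 treated pairs), so the line was a replicate block in an alternative. The other alternatives were no filter, quantile normalization, all 7 groups fitted at once, a pseudocount of 10, an adjusted p under 0.05 whatever the fold change, and leaving out each library. No 2 libraries were identical. All 36 genes are named, and values are printed for those past the threshold or outside the untreated range in a group. The members and lists were chosen with earlier results of these data known. The method was tested on simulated data.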

Additional observations from a re-analysis of the deposited data

Results flagged for a closer look

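Among the 4 untreated libraries of each of the 36 genes, a library far from the other 3 was found for 2 genes, where chance gives about 1 in 20. Pdk4 in line 1 read 10 against 4 in the other 3 libraries (gap over range 1.0), and Abca1 in line 3 read 30 against 13 to 14 (0.941).

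With a replicate block for the line, the effect of indirect CAP from day 2 differed from that from day 1 in 6 genes. The difference of log2 values was -1.23 for Cd36, -1.43 for Acaa1b, -1.27 for Fabp2, -1.82 for Apoc3, -1.72 for Apoa1 and -1.30 for Fabp1. Without the block none of them passed in limma, and 9 of 36 had an unadjusted p under 0.05.

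Ehhadh lay above every untreated library after direct CAP for 30 min (log2 fold change 0.23) and below every one in the day 2 groups of indirect CAP (-0.94) and PAM (-1.0). The difference between these groups was not tested.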

How the results depend on the processing

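No log2 fold change of a gene that passed was reversed by any alternative. Under the alternatives, 175 values of such genes stayed past the threshold and 26 did not. The 175 include 1 value per call for the looser adjusted p under 0.05, which every call meets by definition. At an adjusted p under 0.05 whatever the fold, 9 genes passed over the 9 libraries together, 7 after direct CAP for 24 h, 7 after indirect CAP and 11 after PAM from day 1, 16 after indirect CAP and 15 after PAM from day 2, and 1 for indirect CAP from day 2 against day 1. Quantile normalization left 3 after PAM from day 2, where it moved the median of all genes from -0.12 to 0 and that of the members to 0.04. All 7 groups in one fit gave 1 for PAM from day 2 against day 1, Abca1 (-1.72, limma adjusted p = 0.00478), and added Fabp2 with PAM from day 2 (-1.77, 0.00537). With the replicate block, 6 genes passed for indirect CAP from day 2 against day 1. Against untreated organoids the block ended the calls of Pdk4 and Acaa2 and changed no other, though untreated lines 1 and 2 correlated more with each other's line. Leaving out each library gave 0 to 1 genes over the 9 libraries together (0 without untreated line 1), 0 to 1 after direct CAP for 24 h, 3 to 5 after PAM from day 1, 3 to 6 after indirect CAP and 3 to 6 after PAM from day 2 (3 without its line 4), and none in the other 7 comparisons. Apoa1, Apoc3, Creb3l3 and Ppard kept their calls under every alternative run, as did Pparg after PAM from day 1. Angptl4 passed there under quantile normalization (1.68, limma adjusted p = 0.0097). Depth limits Pdk4 and Abca1, which are near the filter, and 3 libraries a group limit the rest.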
